A study of Mus musculus with 20 samples.

Results

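The regions described are 3 windows of the mouse genome that hold large clusters of olfactory receptor genes: chr2:85000001-90000000, chr7:109500001-114500000 and chr9:37700001-39900000 in the mm9 build, 12.2 Mb in all. The windows were set by position and not by a rule on measured values. Earlier results of these data were known when the windows were chosen. A peak was counted in a window when at least 1 bp of it lay there. That gave 20154 of the 4480164 peaks in 10 peak lists, and 780300 other peaks lay on the rest of chromosomes 2, 7 and 9, which spans 437 Mb.

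The lists come from chromatin immunoprecipitation followed by sequencing of mouse embryonic fibroblasts of the C57BL/6 strain, taken at E13.5 and used at passage 4. Mutant cells labelled SS, an abbreviation with no key in the labels, were set beside wild type (WT) cells. H3K27me3 and pRb were assayed in arrested SS, arrested WT, proliferating SS and proliferating WT cells, and Ezh2 in serum-deprived SS and WT cells. pRb was precipitated with 5 antibodies, per the labels. Arrested cells were kept in 0.1% serum for 72 h according to the protocol, although the growth labels of the arrested pRb libraries name confluence. All cells were expanded in 10% serum. Each group is 1 library, so the spread between replicates is unknown and no difference was tested. The lists are bulk measurements, in which a mark present in few cells cannot be told apart from a weak mark in all cells.

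Olfactory receptor genes encode G protein-coupled odorant receptors, and each olfactory neuron expresses a single one of them. They stand in long tandem arrays, and outside the olfactory epithelium they are silent as a rule. In olfactory tissue their silencing is known to rest on constitutive heterochromatin carrying H3K9 and H4K20 methylation. H3K27me3 is another silencing mark. It is written by Polycomb repressive complex 2, whose catalytic subunit is Ezh2, and in mammals it lies mainly over CG-rich promoters of developmental genes. pRb, the retinoblastoma protein, represses E2F targets in arrested cells.

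The gene table at hand belongs to a later build (GRCm38.p6, RefSeq), so no mm9 peak was assigned to a gene and the clusters were described from it by name only. The longest run of neighbouring olfactory receptor genes held 222 coding genes on chromosome 2, from Olfr987 to Olfr1274, 126 on chromosome 7, from Olfr543 to Olfr692, and 95 on chromosome 9, from Olfr160 to Olfr986. Few other coding genes interrupt the runs on chromosomes 2 and 9, 3 in each. The chromosome 7 run held 27, among them beta-like globin genes (Hbb-bt, Hbb-bs), which encode haemoglobin chains, and Trim genes such as Trim30a and Trim5, whose products act in innate immunity. That these runs fill the mm9 windows was not checked by position, and the lists hold no expression values, so the silence of the genes was not measured.

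The sequence before the annotated start of the receptor genes was poor in CG. Promoter here means that sequence, and whether transcription begins at the annotated start was not checked for either set of genes. Of the 443 coding receptor genes in the 3 runs, 374 had a RefSeq promoter sequence, and the 250 bases before the start were read. The receptor promoters held a median of 1 CG dinucleotide (quartiles 0 and 1), against 10 (3 and 19) in the 3748 other coding genes of the same chromosomes, from which all olfactory receptor genes were left out. CG was absent from 44.4% of the receptor promoters and from 5.23% of the others. Of the receptor promoters 0 of 374 held 10 or more CG, against 52.3% of the others. Median GC content was 32.8% in receptor promoters and 56.0% in the others. The sequences below show 1 promoter per run, the one nearest to its run's median in CG number and GC content, with every CG in capitals (250 bases, 5′ to 3′ along the gene, positions in GRCm38.p6 and not in the build of the peaks).
Olfr1128, chr2:87545543-87545792, minus strand: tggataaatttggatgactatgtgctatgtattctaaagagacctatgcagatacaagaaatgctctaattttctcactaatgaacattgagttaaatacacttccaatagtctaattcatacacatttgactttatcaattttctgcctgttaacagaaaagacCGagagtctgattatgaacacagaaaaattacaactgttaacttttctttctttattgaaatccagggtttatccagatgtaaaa
Olfr559, chr7:102724489-102724738, minus strand: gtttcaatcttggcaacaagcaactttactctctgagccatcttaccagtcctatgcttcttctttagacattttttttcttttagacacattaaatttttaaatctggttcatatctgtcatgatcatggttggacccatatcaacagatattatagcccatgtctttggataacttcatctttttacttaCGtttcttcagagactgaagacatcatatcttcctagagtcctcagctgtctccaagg
Olfr902, chr9:38448542-38448791, plus strand: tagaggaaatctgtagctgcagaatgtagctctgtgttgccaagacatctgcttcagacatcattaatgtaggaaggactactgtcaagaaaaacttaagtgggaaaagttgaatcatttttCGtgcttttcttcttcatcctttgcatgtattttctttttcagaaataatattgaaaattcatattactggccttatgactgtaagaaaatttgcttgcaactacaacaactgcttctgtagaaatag

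**Figure D1:**
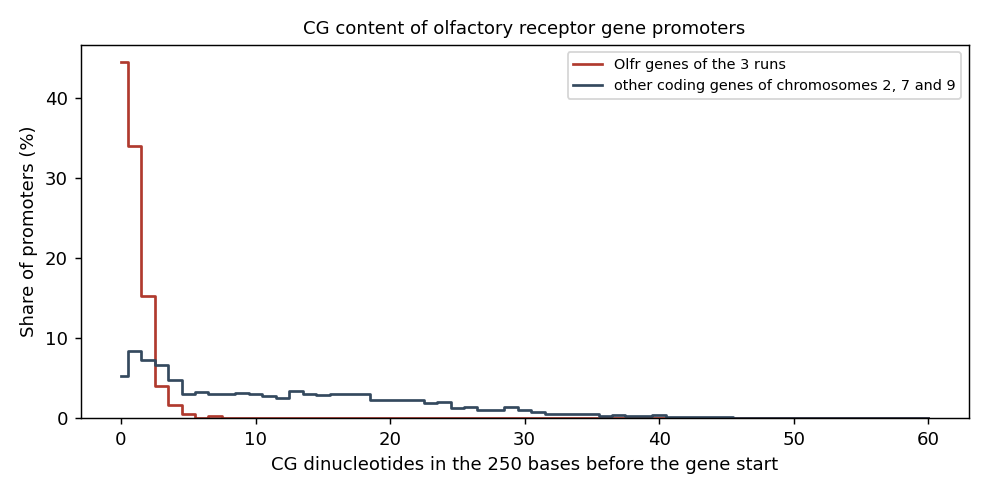
Share of promoters (y axis, percent) by the number of CG dinucleotides in the 250 bases before the gene start (x axis), for 374 receptor genes of the 3 runs and 3748 other coding genes of chromosomes 2, 7 and 9. The receptor promoters end at 7 CG, whereas the others spread up to 54.

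The lists differ in size and in peak length, and depth is unknown because they hold no read counts. They range from 77809 peaks (proliferating WT pRb) to 1184135 (SS Ezh2). The arrested WT H3K27me3 list stands apart from the other 3 of its antibody: on the rest of the 3 chromosomes 44.5% of its peaks had the shortest length in the list, 133 bp, against 6.3% to 21.6% in the other 3. For this list the coverage ratio and the ratios between groups are also given for peaks of at least 500 bp, and its other values are given for all peaks only. Ezh2 peaks were mostly at the shortest length too, 57.7% in SS and 60.9% in WT cells.

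The receptor windows were poor in H3K27me3 peaks. In arrested SS cells the mark covered 1.67% of the windows and 8.08% of the rest, a ratio of 0.206. The arrested WT list had 5.08% and 8.17%, a ratio of 0.622, and among its peaks of at least 500 bp the ratio was 0.435. In proliferating cells the mark covered 2.05% of the windows against 14.2% of the rest in SS cells, and 1.71% against 12.0% in WT cells, so that the windows had 0.145 and 0.142 times the coverage of the rest. All 4 lists thus had less in the windows than in the rest, and the arrested WT list was the nearest to its rest.

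The same order was found in the number of peaks. The windows held 39.3 H3K27me3 peaks per Mb in arrested SS cells and the rest 95.4, a density ratio of 0.412 (95% exact binomial interval 0.376 to 0.451). The ratio was 0.827 (0.796 to 0.859) in arrested WT, 0.277 (0.244 to 0.314) in proliferating SS and 0.239 (0.205 to 0.278) in proliferating WT cells. The intervals hold counting error alone, and they treat peaks that lie side by side as independent.

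The 3 windows did not have the same amount of H3K27me3. The chromosome 7 window had the most in each list. Its share was 2.62% in arrested SS cells, against 0.978% on chromosome 2 and 1.07% on chromosome 9. Arrested WT cells had 5.69% on chromosome 7, 4.39% on chromosome 2 and 5.27% on chromosome 9. By share of the whole window, chromosome 9 was the barest in proliferating cells, with 0.806% covered in SS and 0.488% in WT cells, 0.0519 and 0.0373 times the rest of chromosome 9. The chromosome 2 window followed with 0.979% in SS and 0.759% in WT cells, 0.0708 and 0.0643 times the rest. Away from the outer 500 kb the order was the other way, with 0.204% in SS and 0.0554% in WT cells on chromosome 2. Chromosome 9 had 0.416% and 0.193% there. Proliferating coverage of the chromosome 7 window was 3.67% in SS and 3.19% in WT cells, or 0.272 and 0.282 times the rest.

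**Figure D2:**
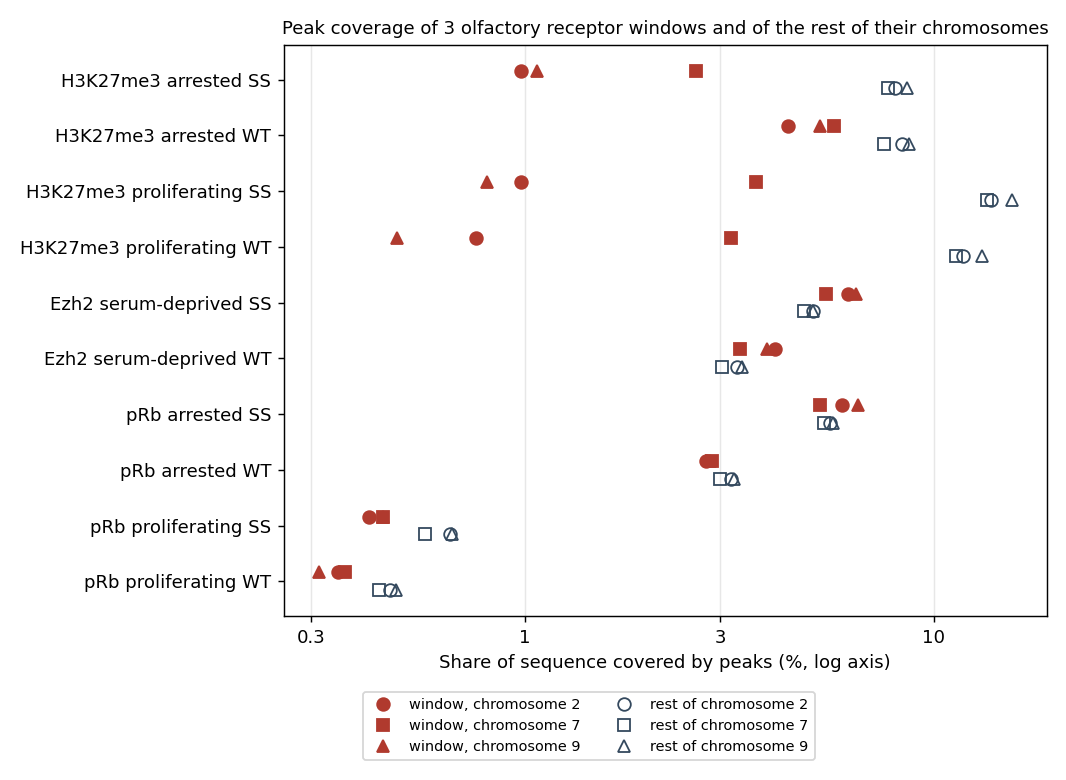
Share of sequence covered by peaks (x axis, percent, log scale) in each of the 10 lists (rows), 1 filled point per window and 1 open point for the rest of its chromosome. H3K27me3 windows lie left of the rest in every list, from 0.488% for chromosome 9 in proliferating WT cells to 5.69% for chromosome 7 in arrested WT cells, while Ezh2 windows lie to the right of the rest.

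In the proliferating lists most of the H3K27me3 in the windows sat in a few places, and long stretches had no peak. Of the 122 bins of 100 kb in the windows, 4.92% had no arrested SS peak, against 5.92% of the 4304 bins in the rest, and 0% lacked an arrested WT peak, as in the rest. In proliferating cells 50% had no SS peak and 68.9% no WT peak, against 19.5% and 27.7% of the bins in the rest. The 5 most covered bins of each window, 15 of 122, held 46.9% of the covered length in arrested SS cells and 21.8% in arrested WT cells. The same number of bins held 71.6% in proliferating SS cells and 78.4% in proliferating WT cells. Of the 4 lists, the arrested WT peaks were thus the most evenly spread over bins of the windows, and they were so in the rest as well. There the standard deviation over bins, divided by their mean, was 0.702 in arrested WT cells. It was 1.46 in arrested SS, 1.37 in proliferating SS and 1.5 in proliferating WT cells. The share held by the most covered bins was not computed for the rest.

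The longest stretch without an H3K27me3 peak in any window measured 180 kb in arrested SS cells and 53.5 kb in arrested WT cells, both on chromosome 7. On chromosome 2 it measured 1064 kb in proliferating SS cells, at chr2:86302745-87366250, and 2346 kb in proliferating WT cells, at chr2:85851440-88197566. On chromosome 7 the longest stretches were 765 kb in SS (110252891-111018097) and 1089 kb in WT cells (109912485-111001295). On chromosome 9 they were 513 kb in SS and 631 kb in WT cells. Stretches of 100 kb or more without a peak made up 33.5% of the chromosome 2 window in arrested SS cells and 0% in arrested WT cells, against 87.4% in proliferating SS and 96.0% in proliferating WT cells. Such stretches were not measured in the rest, where they also occur. From -2.95 to -2.25 Mb of the start of the chromosome 2 window, every 100 kb bin had 0% in proliferating WT cells.

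Much of the mark in the chromosome 2 and 7 windows lay at the left edge in proliferating cells. The first 500 kb were covered to 8.16% in SS and 7.0% in WT cells on chromosome 2, and to 12.6% in SS and 12.5% in WT cells on chromosome 7. The first bin of the chromosome 2 window, at 85000001-85100000, was covered to 19.8% in arrested SS, 14.4% in arrested WT, 37.6% in proliferating SS and 32.2% in proliferating WT cells. The second most covered bin of that window lay beside it, at 85100001-85200000, and had 2.03% in proliferating SS and 2.78% in proliferating WT cells. The Mb to the left of the window was covered to 16.5% in proliferating SS and 15.5% in WT cells, and the profile along the chromosome shows marked bins on both sides of the start of the window. Away from the outer 500 kb on either side, H3K27me3 covered 0.204% of the chromosome 2 window in proliferating SS and 0.0554% in proliferating WT cells. The corresponding shares of the chromosome 9 window were 0.416% and 0.193%, although the Mb to its left was covered to 37.7% in SS and 35.1% in WT cells and the Mb to its right to 28.6% and 25.3%. The inner chromosome 9 window was barer than the Mb on either side in arrested cells too. Arrested SS peaks covered 0.855% of it, against 21.4% to the left and 15.1% to the right. Arrested WT peaks covered 5.16% of it, against 14.6% and 11.9%. Bare bins also lay outside the window. From -2.05 to -1.25 Mb of its start every bin had 0% in proliferating WT and at most 0.808% in proliferating SS cells.

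The chromosome 7 window also held marked stretches well inside it. Away from its outer 500 kb, 2.70% was covered in proliferating SS and 2.21% in proliferating WT cells. Its most covered bin, at 112900001-113000000, had 11.7% in arrested SS, 12.5% in arrested WT, 34.6% in proliferating SS and 27.5% in proliferating WT cells. The bin at 109600001-109700000, near the left edge, had 14.1%, 15.1%, 27.8% and 28.0% in the same order of groups. The longest peak of both proliferating lists over the 3 windows overlapped at one place, chr7:112571369-112579802 (8434 bp) in SS and chr7:112571122-112580683 (9562 bp) in WT cells, and it was also the peak of highest -log10 q-value in the windows in both. The longest arrested SS peak, chr7:112571674-112577584 (5911 bp), lay there as well. The proliferating SS and WT peaks there ranked 5369 and 3705 by length in their whole lists.

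**Figure D3:**
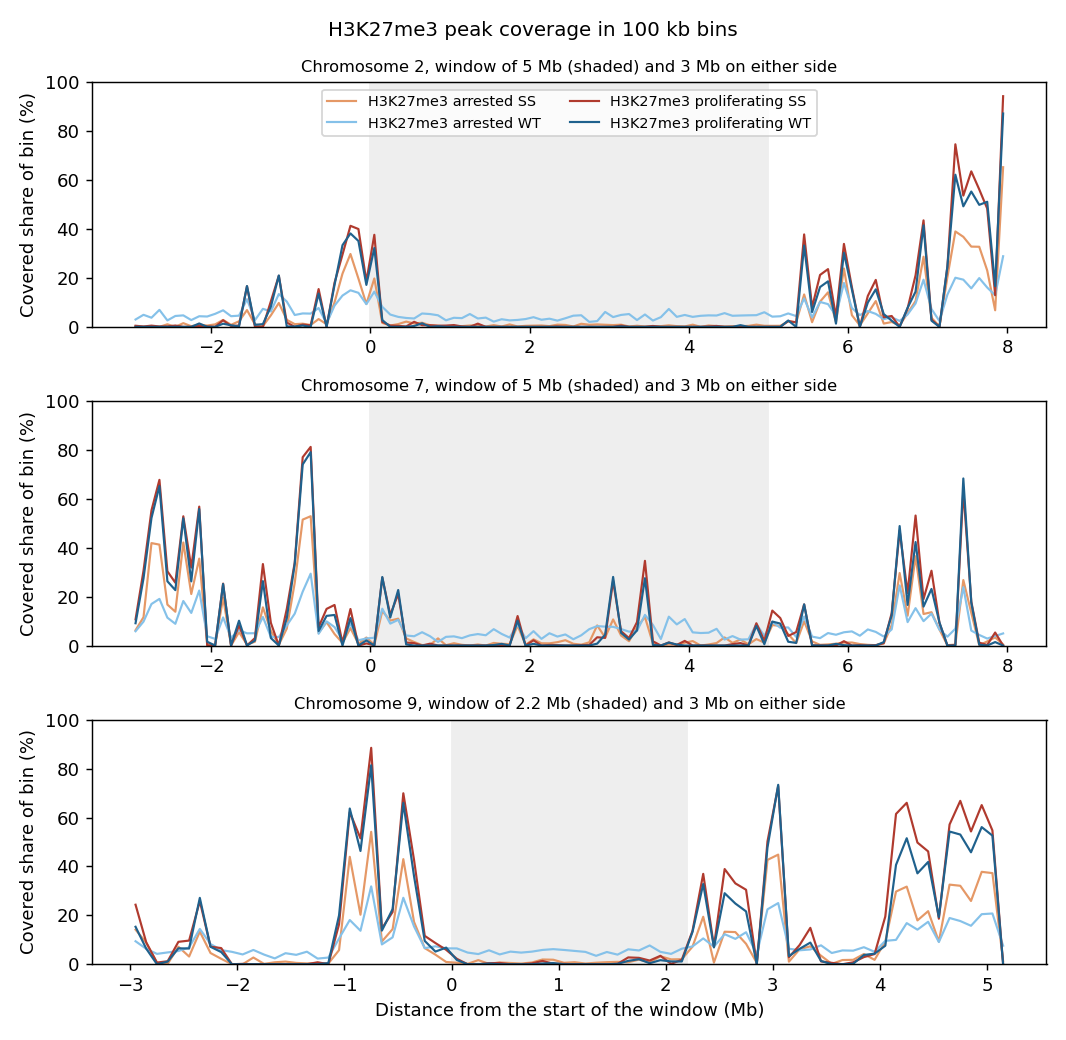
Share of each 100 kb bin covered by H3K27me3 peaks (y axis, percent) along the 3 windows (shaded) and 3 Mb on either side, by distance from the start of the window in Mb (x axis), 1 line per library. The chromosome 9 window and all but the first bins of the chromosome 2 window lie near 0 in 3 of the 4 lists, the chromosome 7 window has inner maxima, and the arrested WT line stays above 0 throughout.

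A smaller share of H3K27me3 regions was common to all 4 libraries in the windows than in the rest. When H3K27me3 peaks of the 4 lists within 1 kb were merged, 2412 merged regions touched the windows, of which 2102 (87.1%) came from 1 list only, against 71.2% of 78342 in the rest. Of these 2102 regions 1911 (90.9%) came from the arrested WT list, against 86.9% of the 55810 regions of 1 list in the rest. The 43 regions with a peak in all 4 lists were 1.78% of those in the windows, against 9.68% in the rest. Their median length was 6274 bp in the windows and 6519 bp in the rest, and 34 of the 43 lay on chromosome 7. Such a count favours long regions, since a longer region has more room for peaks of every list. The longest ran from 112551730 to 112581225 on chromosome 7 (29496 bp), and proliferating peaks covered 71.9% of it in SS and 80.8% in WT cells. The next, chr2:85027794-85052365, was covered to 67.0% in proliferating SS and 55.8% in proliferating WT cells. On chromosome 9 there were 3 such regions, which summed to 6.89 kb.

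H3K27me3 peaks in the windows were also shorter than elsewhere. Their median length was 224.5 bp in the windows and 472 bp in the rest in arrested SS cells. The medians in arrested WT cells, 133 bp in the windows and 139 bp in the rest, both lay at or near the shortest length. In proliferating cells the medians were 512 bp in the windows and 748 bp in the rest for SS, and 600 and 771 bp for WT. Peaks over 10 kb were 0 of 250 in the windows in proliferating SS cells (Wilson upper bound 1.51%), against 3.11% of peaks in the rest, and 0 of 175 in proliferating WT cells (2.15%), against 3.2%. In arrested cells such peaks were also rare in the rest, 0.374% in SS and 0.00172% in WT cells, and the 0 of 480 and 0 of 2684 in the windows were not distinguishable from that at these numbers.

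Long peaks held less of the length in the windows. Peaks of at least 500 bp were 29.0% of arrested SS peaks in the windows (95% Wilson interval 25.1 to 33.2) and 47.9% in the rest. The shares were 11.4% (10.3 to 12.7) and 18.2% in arrested WT, and 52.0% (45.8 to 58.1) and 65.9% in proliferating SS cells. For proliferating WT they were 62.3% (54.9 to 69.1) and 67.6%, so that the interval of the windows held the value of the rest. Peaks over 1 kb held 28.1% of the peak length in the windows and 63.8% in the rest in arrested SS cells, and 9.52% and 25.4% in arrested WT cells. They held 68.0% and 85.7% in proliferating SS, and 72.7% and 86.2% in proliferating WT cells.

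**Figure D4:**
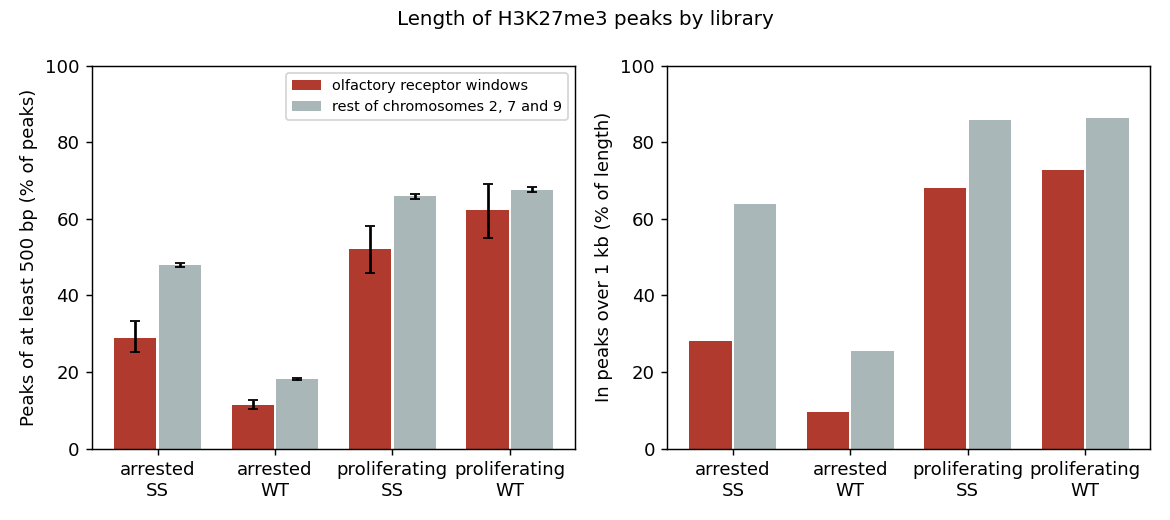
Left, peaks of at least 500 bp as a percentage of peaks (bars, with 95% Wilson intervals as error bars). Right, percentage of peak length held by peaks over 1 kb, in the windows and in the rest of chromosomes 2, 7 and 9, for the 4 H3K27me3 libraries. Window bars lie below the bars of the rest in all 4, for instance 28.1% against 63.8% in arrested SS cells on the right.

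The share of high-scoring peaks was not clearly different between windows and rest. The score of an H3K27me3 peak is here the authors' -log10 q-value. Scores and folds per peak are the authors' own and were used only within a list. Of each whole list the 10% with the highest score took in 10.4% of window peaks (50 of 480) and 10.7% of those in the rest in arrested SS cells, and 9.84% (Wilson interval 8.77 to 11.0) and 10.0% in arrested WT cells. In proliferating cells it took in 19 of 250 window peaks, 7.6% (4.92 to 11.6), and 11.3% of the rest in SS, and 13 of 175, 7.43% (4.39 to 12.3), and 11.5% of the rest in WT. Each of these 3 intervals held the value of the rest. The authors' fold enrichment had a median of 3.15 in the windows and 3.26 in the rest in arrested SS cells, and 5.66 and 5.92 in arrested WT cells. In proliferating cells the medians were 2.55 and 2.64 for SS, and 2.52 and 2.61 for WT. The highest score in the windows in the arrested WT list fell on a peak of 134 bp at chr2:86168175-86168308, where 0 of the other 9 lists had a peak. In arrested SS cells it fell on a peak of 222 bp at chr9:38576388-38576609.

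Ezh2, the enzyme that writes the mark, covered slightly more of the windows than of the rest. Its peaks covered 5.93% of the windows and 4.97% of the rest in SS cells, a ratio of 1.19, and 3.75% and 3.24% in WT cells, a ratio of 1.16. The ratio was above 1 in each window: 1.22 on chromosome 2, 1.14 on chromosome 7 and 1.27 on chromosome 9 in SS cells, and 1.23, 1.11 and 1.15 in WT cells. Peak density was 1.13 times that of the rest in SS (1.10 to 1.16) and 1.14 times in WT cells (1.11 to 1.17). Of the 122 bins, 73.8% in SS and 69.7% in WT cells had more Ezh2 coverage than the median bin of the rest. For H3K27me3 the same shares were 9.84% in SS and 17.2% in WT cells when arrested, the matching growth condition, and 8.2% in SS and 9.02% in WT cells when proliferating. Ezh2 coverage was more even along the rest than that of H3K27me3. The standard deviation over bins of the rest, divided by their mean, was 0.286 in SS and 0.316 in WT cells for Ezh2. For arrested H3K27me3 it was 1.46 in SS and 0.702 in WT cells.

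Ezh2 peaks in the windows were mostly short, like Ezh2 peaks elsewhere. The shortest length of the list made up 56.7% of window peaks in SS and 61.7% in WT cells, and the longest peaks measured 787 bp in SS (chr9:38873292-38874078) and 734 bp in WT cells (chr2:87589326-87590059). The share of peaks of at least 500 bp was 0.981% in the windows and 0.703% in the rest in SS cells, and 0.414% and 0.351% in WT cells. The most covered bin for Ezh2 was at chr2:87000001-87100000, with 9.94% in SS and 5.70% in WT cells. H3K27me3 coverage there was 0.498% in arrested SS, 3.96% in arrested WT and 0% in both proliferating lists. The bin most covered by H3K27me3, at chr2:85000001-85100000, had 4.99% Ezh2 coverage in SS and 4.26% in WT cells, against 6.17% in SS and 4.08% in WT cells over the whole window. The mm9 sequence of the windows was not used here, so base composition was not set beside these values.

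pRb, assayed in the same 4 groups as H3K27me3, covered the windows at 0.691 to 1.04 times the share of the rest. In arrested cells of the SS genotype pRb covered 5.77% of the windows and 5.53% of the rest, a ratio of 1.04, and in arrested WT cells 2.82% and 3.14%, a ratio of 0.899. In proliferating cells the ratios were lower, 0.691 in SS (0.435% and 0.629%) and 0.753 in WT cells (0.349% and 0.463%). The density ratio was 0.998 (0.962 to 1.03) in arrested SS, 0.886 (0.845 to 0.928) in arrested WT, 0.705 (0.635 to 0.782) in proliferating SS and 0.768 (0.682 to 0.862) in proliferating WT cells. Each of the 3 windows lay below the rest in both proliferating lists and in arrested WT cells, whereas in arrested SS cells chromosomes 2 and 9 lay above it (1.07 and 1.15) and chromosome 7 below (0.977).

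The median pRb peak lengths of windows and rest lay within 4 bp of each other. They were 168 bp in the windows and 166 bp in the rest in arrested SS cells, and 145 bp in both in arrested WT cells. They were 143 and 145 bp in proliferating SS, and 144 and 148 bp in proliferating WT cells. The longest window peaks measured 867 bp in arrested SS (chr7:111920863-111921729), 622 bp in arrested WT (chr9:38425380-38426001), 266 bp in proliferating SS and 242 bp in proliferating WT cells. The highest pRb score of each list in the windows fell at a different place in each of the 4, and 0 of the other 9 lists had a peak at any of these places. The bin at chr7:113100001-113200000 was low in every list, with 0.80% in arrested SS and 0.432% in arrested WT pRb, 0.51% in SS and 0.725% in WT Ezh2, and 2.69% or less for H3K27me3.

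SS and WT libraries were then compared in the windows. For arrested H3K27me3 the SS list covered 1.67% and the WT list 5.08%, a ratio of 0.328, whereas in the rest of the chromosomes the ratio was 0.989. The ratio was below 1 in each window, 0.223 on chromosome 2, 0.46 on chromosome 7 and 0.203 on chromosome 9. SS was lower in 113 of the 122 bins, by a median of 3.6 percentage points over all 122. A bin was counted as past the fold where the covered shares, each plus 0.5 percentage points, differed by 2 times or more. SS was lower past the fold in 102 of 122 bins (83.6%), against 50% of all 25686 bins of the genome and 45.7% of the rest of the 3 chromosomes, and SS was higher past it in 0 of 122, against 4.23% of all bins. With peaks of at least 500 bp, the SS over WT ratio in the windows relative to the rest was 0.355, against 0.332 for all peaks. Bare bins outside the windows could show the same difference. From -2.95 to -2.25 Mb of the start of the chromosome 2 window, arrested SS peaks covered 0% to 1.51% of each bin. Arrested WT peaks covered 2.63% to 6.95% there. The windows were not compared with bins of the rest chosen to be as bare.

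In proliferating cells the H3K27me3 lists of both genotypes were close. The SS list covered 1.2 times the WT share in the windows (2.05% and 1.71%) and 1.18 times in the rest. SS was higher past the fold in 18 of 122 bins (14.8%), against 16.2% of all bins, and lower in 3, against 4.71%. The ratio in the windows was 1.29 on chromosome 2, 1.15 on chromosome 7 and 1.65 on chromosome 9, the last from 41 SS and 26 WT peaks. The gain was led by the bin at chr7:112900001-113000000 (34.6% in SS and 27.5% in WT), and the largest loss was that at chr7:109800001-109900000 (21.1% in SS and 22.7% in WT).

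Ezh2 covered 1.58 times as much of the windows in SS as in WT cells, and 1.53 times as much of the rest. SS was higher in 115 of the 122 bins. It was past the fold in 18 of 122 bins (14.8%), against 10.9% of all bins, and lower past it in 0, against 0.00389% of all bins. The largest gain, in the bin at chr9:39100001-39200000, was 8.41% in SS against 2.47% in WT cells. The ratio in the windows was 1.03 times that in the rest.

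pRb in arrested cells covered 2.05 times as much of the windows in SS as in WT cells (5.77% and 2.82%) and 1.76 times as much of the rest. The ratio was 2.15 on chromosome 2, 1.84 on chromosome 7 and 2.31 on chromosome 9. SS was higher in 119 of 122 bins and past the fold in 56 (45.9%), against 28.5% of all bins and 27.9% of the rest of the 3 chromosomes. It was lower past the fold in 0, against 0.0701% of all bins. In proliferating cells the ratio was 1.25 in the windows (0.435% and 0.349%) and 1.36 in the rest. There SS was higher past the fold in 3 of 122 bins (2.46%), against 8.34% of all bins, and lower in 0, against 1.7%. The 0.5 points added to each share limit what can pass where coverage is this low.

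The share of H3K27me3 peaks found in both genotypes was smaller in the windows than in the rest. Of proliferating SS H3K27me3 peaks, 100 of 250 (40.0%, 95% Wilson interval 34.1 to 46.2) touched a WT peak by 1 bp or more in the windows, and 53.0% in the rest. Of arrested SS peaks, 23.5% (20.0 to 27.5) did so in the windows and 40.9% in the rest. The order was the other way for Ezh2, with 9.88% (9.18 to 10.6) of SS peaks in the windows and 8.04% in the rest. For arrested pRb, 6.0% (5.21 to 6.89) of SS peaks overlapped a WT peak in the windows and 7.3% in the rest, and for proliferating pRb 5 of 372 peaks did, 1.34% (0.575 to 3.11), and 1.19% in the rest. These shares depend on the overlap asked for: with 50% reciprocal overlap those in the windows were 3.75% for arrested H3K27me3, 15.2% for proliferating H3K27me3, 1.71% for Ezh2, 1.82% for arrested pRb and 0.806% for proliferating pRb, with no value computed for the rest. Such shares also move with peak length and coverage, which also differed between windows and rest as given above. The overlap expected from length and coverage alone was not computed, so these shares do not show whether sites were common to both genotypes beyond it.

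Growth condition was compared within each genotype. In SS cells H3K27me3 covered 0.812 times as much of the windows in arrested as in proliferating cells (1.67% and 2.05%), against 0.569 times in the rest. The ratio was 0.999 on chromosome 2, 0.712 on chromosome 7 and 1.33 on chromosome 9. The arrested list was higher past the fold in 37 of 122 bins (30.3%), against 18.5% of all bins, and lower in 6 (4.92%), against 24.0%. Losses were ranked by the difference in percentage points, so only bins well covered in proliferating cells could rank high. The largest was at chr7:112900001-113000000, with 11.7% in arrested and 34.6% in proliferating SS cells.

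In WT cells arrested H3K27me3 covered 2.98 times as much of the windows as proliferating H3K27me3 (5.08% and 1.71%), against 0.681 times in the rest. This comparison rests on the arrested WT list, the one rich in peaks of shortest length. The windows held 2684 arrested and 175 proliferating peaks, 15.3 times as many, against 4.44 times in the rest, and the mean window peak was 0.194 times as long. The arrested list was higher past the fold in 111 of 122 bins (91.0%), against 53.4% of all bins, and lower in 4 (3.28%), against 16.1%. The largest losses in percentage points were at chr7:112500001-112600000, with 7.65% in arrested and 28.1% in proliferating WT cells, and at chr2:85000001-85100000, with 14.4% and 32.2%. Ranked in this way, a bin with little mark in proliferating cells has little to lose. The largest gains lay in bins with little mark in proliferating cells, such as chr7:113400001-113500000 with 10.8% in arrested WT cells and 0% in proliferating ones. With peaks of at least 500 bp the windows relative to the rest had a ratio of 3.19, against 4.37 for all peaks. Bare bins outside the windows could show this rise too. From -2.95 to -2.25 Mb of the start of the chromosome 2 window, arrested WT peaks covered 2.63% to 6.95% of each bin. Proliferating WT peaks covered 0% there.

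pRb covered far more of the windows in arrested than in proliferating cells, as it did elsewhere. The ratio was 13.3 in SS cells (5.77% and 0.435%), against 8.79 in the rest, and 8.1 in WT cells (2.82% and 0.349%), against 6.79 in the rest. Arrested coverage was higher in all 122 bins in both genotypes. It passed the fold in 121 of 122 bins in SS cells (99.2%), against 99.5% of all bins, and in 116 of 122 in WT cells (95.1%), against 95.6%. It was lower past the fold in 0 of 122 bins in either, against 0.0117% of all bins in SS and 0.0389% in WT cells. The shares of bins past the fold in the windows were thus within 1 percentage point of those of the genome.

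**Figure D5:**
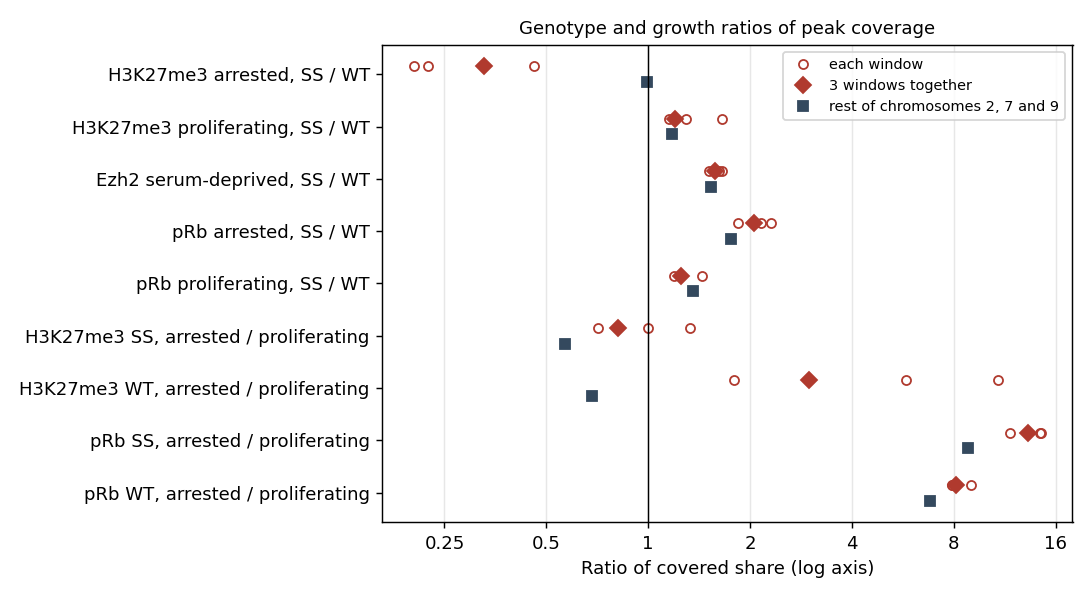
Ratio of covered share (x axis, log scale) for the 5 genotype and 4 growth comparisons (rows), in the 3 windows together, in each window and in the rest of chromosomes 2, 7 and 9. The windows part most from the rest for arrested H3K27me3, SS over WT (0.328 and 0.989), and for WT H3K27me3, arrested over proliferating (2.98 and 0.681), both of which use the arrested WT list. Some bare bins outside the windows showed the same pattern.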

How the data were processed

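Bowtie2, MACS2, HOMER, bedtools and the mm9 build are named in the submitters' processing notes. No version, role, setting or control of these tools was given in the sources, and the caller's settings bear on how many peaks a list holds and how long they are. Each of the 10 immunoprecipitated libraries has its own list, and 10 input libraries were not analysed here. The 4 pRb lists were deposited with 5 columns, the last a score of unstated unit and at least 20. The remaining 6 were deposited in the 9-column broad layout of MACS2. They give the authors' score, the fold enrichment, which is a ratio, and a -log10 p-value. A deposited -log10 q-value closes each line. Peaks were ranked by that q-value, or by the score for pRb.

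Covered share is the length of a region under peaks, and no peaks of one list overlap. The rest of a chromosome runs from the first to the last base covered by any list, without the window. Density intervals are exact binomial and shares have Wilson intervals, both at 95%. The 25686 bins of 100 kb are those of the genome with a peak in at least 1 list. The coverage step was tested on simulated lists. Alternatives were peaks of at least 500 bp, peaks within 1 kb merged, the higher-scoring 50%, windows shortened by 500 kb at each end, flanks of 5 Mb and reciprocal overlap of 50%. The windows, alternatives and rules were chosen with earlier results of these data known. Named regions are, per window, the 2 most covered bins of each antibody, and over the windows the longest and the highest-scoring peak of each list, the longest H3K27me3 stretches without a peak and the 2 bins of largest gain and loss per comparison, of which the leading ones are given. Merged regions by number of lists, the intervals of high-score and over 10 kb shares, the counts over the 5 most covered bins, the edges and the promoters shown were added after values were seen. Promoters are from RefSeq (GRCm38.p6), with 1 per gene. Tables were made in Python 3.11.15 with pandas 2.3.3, numpy 2.4.6 and scipy 1.17.1, and plots with matplotlib 3.10.9.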

Additional observations from a re-analysis of the deposited data

Results flagged for a closer look

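Each value here rests on 1 library a group, and none of the differences was tested. The SS over WT ratio of H3K27me3 coverage in the receptor windows lay on opposite sides of 1 in the 2 growth conditions, 0.328 in arrested and 1.2 in proliferating cells, and relative to the rest of the chromosomes the ratios were 0.332 and 1.02. The arrested over proliferating ratio of H3K27me3 coverage in the windows likewise lay on opposite sides in the 2 genotypes, 0.812 in SS and 2.98 in WT cells. Relative to the rest both were above 1, at 1.43 in SS and 4.37 in WT cells. Each pair includes the arrested WT list, which had the most peaks at its shortest length among the 4. That list also had peaks in bins outside the windows that were bare in proliferating WT cells. For pRb the SS over WT ratio relative to the rest was 1.16 in arrested and 0.918 in proliferating cells, where the proliferating value comes from 372 SS and 295 WT peaks and its counting interval, 0.785 to 1.07, holds 1. With peaks of at least 500 bp the arrested ratio was 1.92.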

How the results depend on the processing

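No paired analysis was possible because each group has 1 library. Under the alternatives run, 0 results were reversed beyond their counting error. Windows over rest, H3K27me3 coverage ratios for arrested SS, arrested WT, proliferating SS and proliferating WT cells (0.206, 0.622, 0.145 and 0.142) became 0.134, 0.532, 0.114 and 0.117 with the higher-scoring 50% of peaks, 0.156, 0.589, 0.093 and 0.0842 with windows shortened by 500 kb at each end, and 0.155, 0.547, 0.109 and 0.103 against 5 Mb on either side. With peaks of at least 500 bp the arrested SS and WT ratios were 0.154 and 0.435. Merging peaks within 1 kb gave 0.595 for arrested WT H3K27me3, 1.24 and 1.23 for SS and WT Ezh2 (1.19 and 1.16) and 0.855 for arrested WT pRb (0.899). Peaks of at least 500 bp gave 1.51 and 1.30 for SS and WT Ezh2, 1.42 for arrested SS pRb (1.04), 0.738 for arrested WT pRb, and 0 for both proliferating pRb lists, which have 0 such peaks in the windows. For proliferating SS pRb (0.691), 5 Mb on either side gave 0.618.

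For arrested H3K27me3, SS over WT relative to the rest (0.332) was 0.252 with the higher-scoring 50%, 0.265 with shortened windows and 0.283 against the 5 Mb. With peaks of at least 500 bp it was 1.16 for Ezh2 (1.03) and 1.92 for arrested pRb (1.16). Arrested over proliferating H3K27me3 in SS cells (1.43) was 1.16 with peaks of at least 500 bp, 1.18 with the higher-scoring 50% and 1.68 with shortened windows. In WT cells (4.37) it was 3.19 with peaks of at least 500 bp, 7.0 with shortened windows and 5.32 against the 5 Mb. Proliferating H3K27me3, SS over WT (1.02), was 0.973 with peaks of at least 500 bp, within its counting error. Reciprocal overlap of 50% gave 3.75% for arrested H3K27me3 (23.5%), 15.2% for proliferating H3K27me3 (40.0%), 1.71% for Ezh2 (9.88%) and 1.82% for arrested pRb (6.0%). The higher-scoring 50% gave 14.6% for arrested H3K27me3, 5.48% for Ezh2, 3.04% for arrested pRb and 0.541% for proliferating pRb (1.34%). Fewer peaks enter the stricter settings. The cause was not tested for the others. Depth is unknown, so a stretch without a peak may hold signal under the authors' threshold.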
